A study of Mus musculus with 47 samples.

Results

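The Zfp genes are the mouse genes named for zinc fingers with a Zfp symbol followed by a number. A gene was taken through each array probeset (a group of short probes read as one value) that carried exactly 1 symbol of this kind, and was represented by its brightest probeset. There were 622 such probesets for 336 genes among the 45037 probesets and 18193 named genes of the array, and a gene was kept as a member when its mean over all 47 arrays was at least 7 on the log2 scale. The 215 members are described here across the groups, together with Zfp189, which was picked in earlier work on these data for its difference at 8h. Zfp189 had a mean of 6.58 over all arrays and therefore lies below the level threshold. It is one of the 121 Zfp genes that were measured but not kept, and no count of members includes it.

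RNA was read from medial prefrontal cortex (PFC). The animals were male C57BL/6J adults exposed to chronic intermittent ethanol (CIE), and the question was how expression follows the time since the last exposure. For CIE mice the air held 10 to 13 mg/l of ethanol vapor, 16 h a day over 4 days, followed by 7 days without exposure, and went through 4 such cycles. They received ethanol at 1.6 g/kg before exposure, and the Ctrl mice received saline and breathed air. Pyrazole, an inhibitor of alcohol dehydrogenase that keeps blood ethanol stable, was given at 1 mmol/kg to CIE and Ctrl mice alike, so no group shows mice without pyrazole. Tissue was taken at 0h, 8h, 72h and 7d after the last exposure, which gave 8 groups of 6 mice except CIE 8h with 5, and each array held the RNA of 1 mouse. At 8h, the arrays of CIE mice 15 and 23 and Ctrl mice 32, 42 and 50 carried the label repeat group 2, and the others repeat group 1.

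Most Zfp genes encode C2H2 zinc finger proteins, in which arrays of fingers bind DNA. Many of these also carry a KRAB domain, which recruits the corepressor Trim28 and, through it, the histone methyltransferase Setdb1, heterochromatin proteins and deacetylases, and are known for silencing transposable elements. The symbol does not mark a single function: Zfp36 and its relatives bind AU-rich RNA and promote its decay, and Zfp189 is known in prefrontal neurons as a target of CREB in work on stress. The members were therefore described by role where the role is known.

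The promoter of Zfp189 is shown with those of the member with the largest called rise at 8h, Zfp518a, and the members whose Ctrl and CIE mice did not overlap at 8h with the largest falls, Zfp775 and Zfp82, as the genes on which the results below turn. Each is the 250 bases before the annotated start in RefSeq (GRCm38.p6), 5′ to 3′ on the strand of the gene, at chr4:49520926-49521175 (plus strand) for Zfp189, chr19:40894455-40894704 (plus strand) for Zfp518a, chr6:48601757-48602006 (plus strand) for Zfp775 and chr7:30072824-30073073 (minus strand) for Zfp82. Capitals mark matches to TGACG, the core of the cAMP response element bound by CREB, and to CCAAT, on either strand (CGTCA and ATTGG are the same letters on the other strand).
Zfp189: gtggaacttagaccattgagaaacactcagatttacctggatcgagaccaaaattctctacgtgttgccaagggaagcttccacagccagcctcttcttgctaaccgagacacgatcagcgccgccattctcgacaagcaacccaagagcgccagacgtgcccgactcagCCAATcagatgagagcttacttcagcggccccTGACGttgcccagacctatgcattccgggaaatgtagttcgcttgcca
Zfp518a: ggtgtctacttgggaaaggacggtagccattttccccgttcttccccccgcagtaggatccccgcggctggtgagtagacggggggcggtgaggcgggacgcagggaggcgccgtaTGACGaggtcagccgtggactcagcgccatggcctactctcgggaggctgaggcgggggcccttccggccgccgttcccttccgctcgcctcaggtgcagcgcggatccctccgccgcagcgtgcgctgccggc
Zfp775: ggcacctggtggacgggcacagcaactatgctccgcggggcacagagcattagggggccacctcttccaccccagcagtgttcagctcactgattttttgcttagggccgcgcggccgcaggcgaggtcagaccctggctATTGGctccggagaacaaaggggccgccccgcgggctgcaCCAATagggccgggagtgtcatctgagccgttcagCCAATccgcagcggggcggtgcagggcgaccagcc
Zfp82: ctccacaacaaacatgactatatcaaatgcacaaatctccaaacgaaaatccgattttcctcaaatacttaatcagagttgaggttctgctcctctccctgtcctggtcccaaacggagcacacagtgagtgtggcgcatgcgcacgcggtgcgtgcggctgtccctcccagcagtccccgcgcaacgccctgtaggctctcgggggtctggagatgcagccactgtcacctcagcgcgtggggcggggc
In Zfp189, CCAAT lay 80 to 76 and TGACG 48 to 44 bases before the start. The Zfp518a promoter held TGACG 134 to 130 bases before the start, Zfp775 held CCAAT or ATTGG at 3 places, and Zfp82 held neither. Of 32851 promoters of this length, 17.8% held TGACG and 33.8% held CCAAT, against 30.6% and 42.1% of the 216 promoters of the 177 members that matched a RefSeq entry. The full element TGACGTCA was in 1.55% of all promoters and 3.24% of those of members, and in none of the 4 shown. A full glucocorticoid response element, as an exact palindrome, was in no member promoter and in 0.00913% of all. A match is a run of letters and not a site of binding.

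The members spanned levels from 7.05 to 12.30, with a median of 8.42 (levels here are log2 values of single probesets, which do not rank RNA amounts between genes). The brightest probesets were those of Zfp622 (12.30), a ribosome maturation factor, Zfp365 (12.15), Zfp445 (12.12), a KRAB protein that maintains imprints, and Zfp106 (12.05), an RNA-binding protein. There were 24 members at a mean of 10 or more and 133 at 8 or more. Just above the threshold lay Zfp62 (7.05), Zfp60 (7.07) and Zfp467 (7.08), and just below it Zfp354b (7.00), Zfp53 (6.99) and Zfp846 (6.99). The SD within groups was 0.14 at the median member and ran from 0.05 to 0.70, and that of Zfp189 was 0.42.

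One array stood apart from the rest before any comparison. CIE 8h mouse 15 had a mean correlation of 0.967 with the other arrays (the next lowest was 0.985 and the median 0.992) and an array weight of 0.104, the lowest of 47, so the called members and the summaries at 8h are given with and without it. Markers of other tissue moved with ethanol at 0h: all 12 measured genes of a striatal list were higher in CIE mice, with a median difference of 0.68 and list means of 8.04 to 8.52 in Ctrl and 8.31 to 10.22 in CIE mice, although 0 of them passed the test. Genes induced by glucocorticoids were higher too (16 of 16, 8 called), and immediate early genes were lower (16 of 16, 7 called; list means of 9.23 to 10.44 in Ctrl and 8.21 to 9.03 in CIE mice). At 8h the glucocorticoid list was again higher in 16 of 16 genes, with 6 called and list means of 9.83 to 10.04 in Ctrl and 10.28 to 10.68 in CIE mice. The 2 measured blood genes had list means of 4.98 to 5.43 in Ctrl 8h and 4.62 to 5.01 in CIE 8h mice, with 1 called lower. High striatal values were not confined to 0h or to CIE mice. At 72h, 11 of the 12 striatal genes were higher in CIE mice, with list means up to 8.98 in Ctrl and 9.88 in CIE mice. At 8h 6 and at 7d 4 of the 12 were higher, and at 7d list means reached 9.59 in Ctrl and 9.77 in CIE mice. Apart from fits with the mean of the striatal list as a term, given below, the part of these lists in the results at 0h and 8h was not tested. In tissue pieces of mixed cells, fewer cells of a type and less RNA per cell cannot be told apart.

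**Figure D1:**
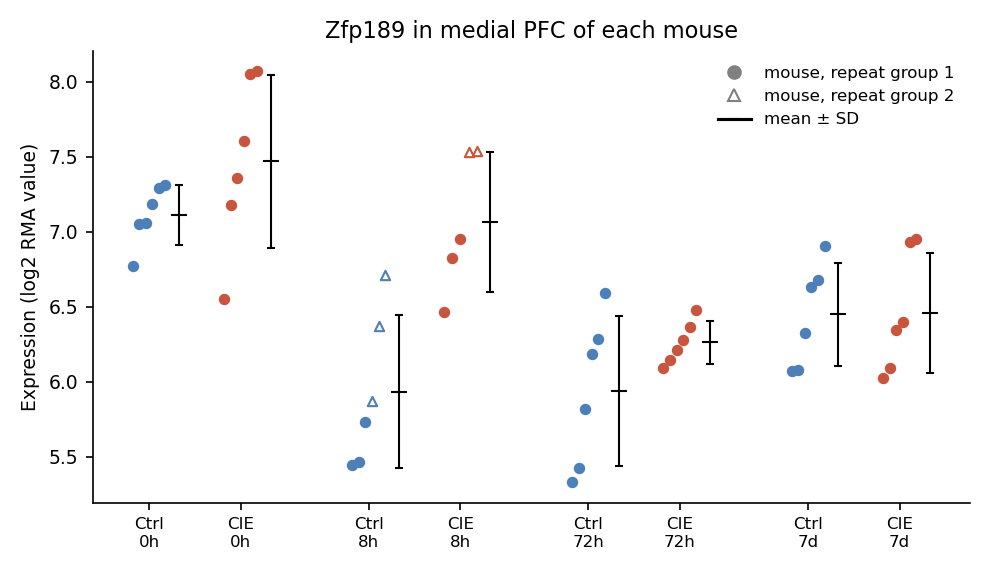
Expression of Zfp189 (log2 RMA value) in each mouse, by treatment and time after the last exposure; filled circles are repeat group 1, open triangles repeat group 2, and bars the mean ± SD. The CIE 8h mice lay between 6.47 and 7.54 and the Ctrl 8h mice between 5.45 and 6.71, and both 0h groups were among the highest.

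Zfp189 was high in both groups at 0h. The 6 Ctrl 0h mice ran from 6.77 over a median of 7.12 to 7.31 (mean 7.11 ± 0.20, SD, n = 6), and the 6 CIE 0h mice from 6.55 over 7.48 to 8.07 (mean 7.47 ± 0.58, SD, n = 6). The groups overlapped at 0h, and the difference of 0.36 did not pass the test (limma, adjusted p = 0.321). At 8h the Ctrl mice were low, from 5.45 over 5.80 to 6.71 (mean 5.93 ± 0.51, SD, n = 6), while the 5 CIE mice held 6.82, 6.95, 6.47, 7.53 and 7.54 (mean 7.06 ± 0.47, SD, n = 5). The CIE mean was thus 1.13 above the Ctrl mean, or 2.19-fold, which is the value Zfp189 was chosen for and is given without a test. It was 1.01 without CIE 8h mouse 15.

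The 8h difference of Zfp189 was of like size in both repeat groups. In repeat group 1 the Ctrl mice ran from 5.45 to 5.73 and the CIE mice from 6.47 to 6.95 (difference 1.20), and in repeat group 2 the Ctrl mice ran from 5.87 to 6.71 and the CIE mice from 7.53 to 7.54 (difference 1.22). The groups did not overlap within either repeat group, of 3 Ctrl and 3 CIE mice in the first and 3 Ctrl and 2 CIE mice in the second. How many of all probesets show no overlap in groups this small was not computed. These are the mice whose difference Zfp189 was chosen for, so the split describes that difference and gives no independent support. The Ctrl and CIE mice overlapped when both repeat groups were pooled, because Ctrl mouse 50 of repeat group 2 (6.71) was above CIE mouse 69 of repeat group 1 (6.47).

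At the later times the CIE and Ctrl mice overlapped for Zfp189. The Ctrl 72h mice ran from 5.33 over 6.00 to 6.59 (mean 5.94 ± 0.50, SD, n = 6) and the CIE 72h mice from 6.09 over 6.25 to 6.48 (mean 6.26 ± 0.14, SD, n = 6), a difference of 0.32 (limma, adjusted p = 0.589). At 7d the means were 6.45 ± 0.34 in Ctrl and 6.46 ± 0.40 in CIE mice (SD, n = 6 each), a difference of 0.01 (limma, adjusted p = 0.991). The sign of that last value turned when any of 5 mice was left out.

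In air-exposed mice alone, Zfp189 fell by 1.17 from 0h to 72h (standard error 0.23, limma, adjusted p = 0.00144), and no Ctrl 72h mouse reached the lowest Ctrl 0h mouse. The Ctrl difference from 0h to 7d was -0.66 (limma, adjusted p = 0.133). In order of their means the groups were CIE 0h (7.47), Ctrl 0h (7.11), CIE 8h (7.06), CIE 7d (6.46), Ctrl 7d (6.45), CIE 72h (6.26), Ctrl 72h (5.94) and Ctrl 8h (5.93). Each gap between neighbours in this order was below the SD within groups, except the 0.60 between CIE 8h and CIE 7d.

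Over the 47 arrays, the genes whose pattern was most like that of Zfp189 among 18192 others were Zbtb11os1 (Pearson r = 0.83), Ccdc114 (0.81), Pitpnm2 (0.81), Cd1d1 (0.81) and Fas (0.80). Among the members, Zfp874a (0.71), Zfp868 (0.70), Zfp277 (0.70) and Zfp560 (0.67) came first, while the median member had 0.18 and the median gene 0.07. When each array was set against the mean of its group, Zfp874a (0.65) and Zfp868 (0.57) again led the members. The arrays share groups and normalisation, so these values are descriptions.

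Across the 215 members, the ethanol differences were small and spread evenly about 0 at most times. The median difference was -0.00 at 0h, 0.05 at 8h (0.01 without CIE 8h mouse 15), 0.00 at 72h and -0.00 at 7d, and the median size was 0.09, 0.12, 0.06 and 0.07. Over the 10229 genes read the same way with a mean of at least 7, the median size was 0.10, 0.11, 0.06 and 0.07. No member differed by more than 1 on the log2 scale at any time.

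**Figure D2:**
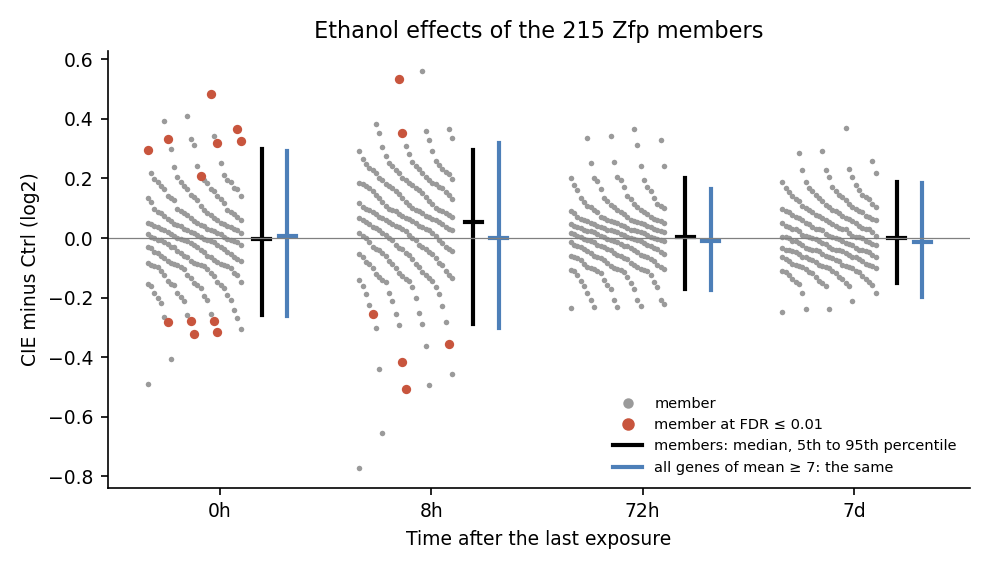
CIE minus Ctrl difference (log2) of each of the 215 Zfp members at each time after the last exposure, with members past FDR 0.01 in red, and the median and 5th to 95th percentile of the members (black) beside those of all genes with a mean of at least 7 (blue). Colored points occur at 0h (12 members) and 8h (6 members), and the spread of members lies close to that of all genes at each time.

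A difference was called at a false discovery rate (FDR) of at most 0.01 in limma over all 45037 probesets. At 0h, 12 of 215 members were called (5.58%), 7 higher and 5 lower in CIE mice, where 7.28% of all probesets and 5.67% of genes with a mean of at least 7 were called (3.69% and 3.02% higher, 3.58% and 2.65% lower). At 8h, 6 members were called (2.79%), 2 higher and 4 lower, against 3.39% and 3.45% (2.28% and 1.73% higher, 1.11% and 1.72% lower). At 72h and 7d, limma called 0 members, while 0.528% and 0.948% of all probesets and 0.0782% and 0.196% of such genes were called. At an unadjusted p of at most 0.05 there were 23 and 21 members. The share of all probesets at that unadjusted threshold is not given here, so these counts show no excess or lack of members. The members' shares at 0h and 8h were thus near or below the background.

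**Figure D3:**
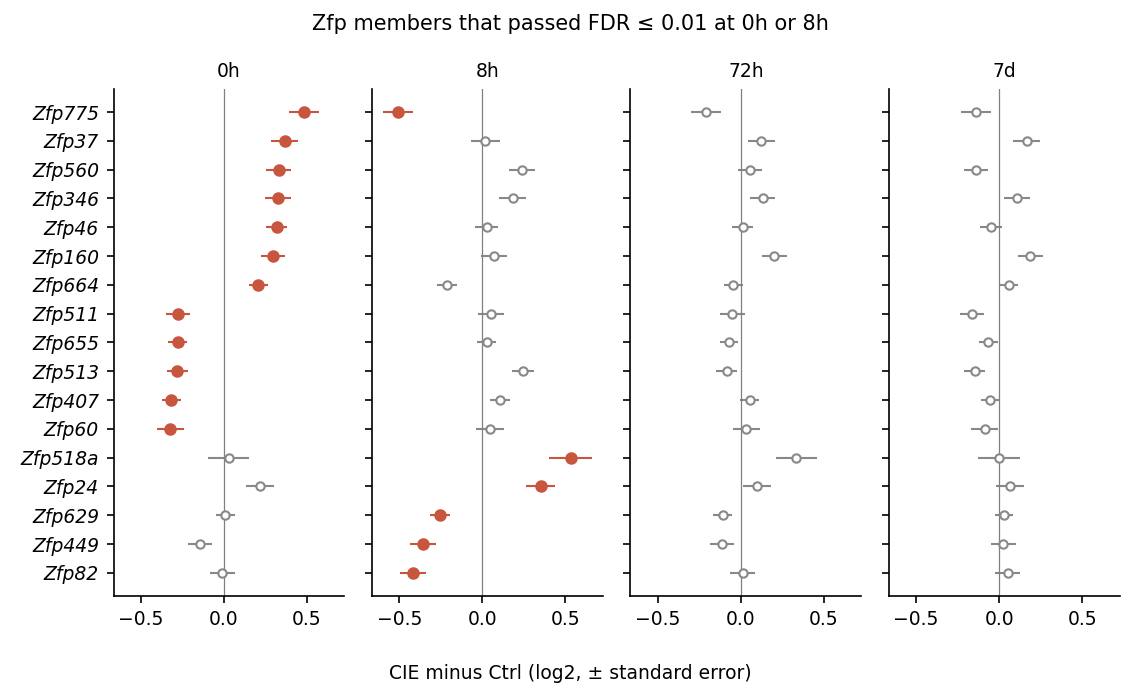
CIE minus Ctrl difference (log2, ± standard error) at the 4 times for each of the Zfp members that passed FDR 0.01 at 0h or 8h, filled red where it passed and open grey where it did not. Zfp775 is the one member called at both times, higher at 0h (0.48) and lower at 8h (-0.51), and Zfp664 lies as far from 0 at 8h (-0.21, not called) as at 0h (0.21).

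The members higher in CIE mice at 0h were Zfp775, Zfp37, Zfp560, Zfp346, Zfp46, Zfp160 and Zfp664. Zfp775, a C2H2 protein, ran from 7.20 over 7.36 to 7.55 in Ctrl 0h and from 7.55 over 7.87 to 8.05 in CIE 0h mice, and rose by 0.48 (standard error 0.09, limma, adjusted p = 0.000200). Its groups touched at 7.55 without overlapping, and all 6 CIE mice were above the Ctrl mean. Zfp46 ran from 10.56 over 10.66 to 10.73 in Ctrl and from 10.86 over 10.94 to 11.13 in CIE mice, and rose by 0.32 (limma, adjusted p = 0.000676). Every CIE mouse was above every Ctrl mouse for Zfp46. Zfp346, which binds double-stranded RNA, ran from 8.72 over 8.90 to 9.14 in Ctrl and from 9.07 over 9.25 to 9.40 in CIE mice, with an overlap between the groups, and rose by 0.33 (limma, adjusted p = 0.00304).

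The other rises at 0h were of like size. Zfp37 rose by 0.37, Zfp560 by 0.33, Zfp160 by 0.30 and Zfp664 by 0.21, with adjusted p of 0.00188, 0.00185, 0.00494 and 0.00902 in limma. The Ctrl and CIE mice overlapped for Zfp37, Zfp560 and Zfp664 and not for Zfp160. Without CIE 0h mouse 5, 7 of the 12 calls at 0h were left, and with the mean of the striatal list as a term, 10 members were called, 7 of them among the 12. The members newly called with that term were Zfp36l2, Zfp932 and Zfp950. The calls lost with the striatal term were Zfp346, Zfp60, Zfp664, Zfp160 and Zfp511, with adjusted p from 0.0146 to 0.0547.

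The members lower at 0h were Zfp407, Zfp513, Zfp655, Zfp60 and Zfp511. Zfp407 ran from 8.79 over 8.87 to 9.15 in Ctrl 0h and from 8.52 over 8.59 to 8.63 in CIE 0h mice, and fell by 0.32 (standard error 0.06, limma, adjusted p = 0.000143). Zfp513 ran from 7.21 over 7.30 to 7.48 in Ctrl and from 6.95 over 7.04 to 7.08 in CIE mice, and fell by 0.28 (limma, adjusted p = 0.00189). Zfp655, a KRAB protein named for its interaction with the signalling protein Vav, ran from 10.06 over 10.19 to 10.37 in Ctrl and from 9.79 over 9.94 to 10.05 in CIE mice, and fell by 0.28 (limma, adjusted p = 0.000599). For these 3 genes no CIE mouse reached a Ctrl mouse. Zfp60 fell by 0.32 and Zfp511 by 0.28, with adjusted p of 0.00484 and 0.00730 in limma and overlapping groups. Over all members, Ctrl and CIE mice did not overlap at 0h in 7 (3.26%), against 7.01% of all probesets and 4.03% of genes with a mean of at least 7.

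At 8h, 4 members were lower in CIE mice. Zfp775 held 7.16, 7.36, 7.06, 6.80 and 7.16 in the 5 CIE mice, against 7.42 over 7.63 to 7.77 in the 6 Ctrl mice, and fell by 0.51 (standard error 0.09, limma, adjusted p = 0.000774). Zfp82 held 6.72, 7.01, 6.73, 6.89 and 7.01 in CIE mice, against 7.12 over 7.30 to 7.41 in Ctrl mice, and fell by 0.42 (limma, adjusted p = 0.000921). For both genes, all CIE mice were below all Ctrl mice. Zfp449 held 7.29, 7.37, 7.08, 7.47 and 7.47 against 7.56 to 7.90 and fell by 0.36 (limma, adjusted p = 0.00288), and Zfp629 held 8.47, 8.46, 8.39, 8.23 and 8.43 against 8.60 to 8.72 and fell by 0.25 (limma, adjusted p = 0.00523). The groups did not overlap for these either. Over all members, the groups did not overlap at 8h in 11 (5.12%), against 6.37% of all probesets and 6.27% of genes with a mean of at least 7. Without mouse 15 it was 14 members (6.51%), against 9.82% and 8.99%.

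The falls at 8h were of the same sign in both repeat groups, and 3 of the 4 calls held without CIE 8h mouse 15. Within repeat groups 1 and 2 the differences were -0.47 and -0.59 for Zfp775, -0.48 and -0.33 for Zfp82, -0.46 and -0.21 for Zfp449, and -0.26 and -0.27 for Zfp629. Without mouse 15, Zfp775 was at -0.43 (limma, adjusted p = 0.00564), Zfp82 at -0.42 (0.00286) and Zfp449 at -0.39 (0.00418), while Zfp629 was at -0.21 and no longer passed (0.0305). In repeat group 1 alone, Zfp82 (limma, adjusted p = 0.00419) and Zfp449 (0.00298) passed, and Zfp775 (0.0120) and Zfp629 (0.0337) did not.

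The 2 members higher at 8h differed more in repeat group 2 than in repeat group 1. Zfp518a held 7.50, 7.57, 7.45, 8.37 and 8.03 in the CIE mice, the last 2 of repeat group 2, against 7.01 over 7.21 to 7.49 in Ctrl mice, and rose by 0.53 (standard error 0.13, limma, adjusted p = 0.00732). Zfp24, which is required for myelination by oligodendrocytes, held 9.87, 9.95, 9.86, 10.73 and 10.12 against 9.66 over 9.72 to 9.91 and rose by 0.35 (limma, adjusted p = 0.00767). The groups overlapped for both genes. Within repeat groups 1 and 2, Zfp518a differed by 0.43 and 0.77 and Zfp24 by 0.17 and 0.65. Without mouse 15 neither passed, at 0.39 for Zfp518a (limma, adjusted p = 0.0552) and 0.20 for Zfp24 (0.0518). Zfp638, which takes part in silencing unintegrated retroviral DNA, held 10.49, 10.46, 10.52, 8.09 and 9.50 in the CIE mice, low in the last 2, of repeat group 2. Its difference of -0.77 was the widest of any member at 8h but was not called (limma, adjusted p = 0.0245). It was -0.34 without mouse 15 (0.188), and -0.15 and -1.73 within repeat groups 1 and 2. A dimmer probeset of Zfp638 (mean 4.32) was called at 8h in the opposite direction, with a rise of 0.40 (limma, adjusted p = 0.00616).

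More members were above than below 0 at 8h, by a margin that was widest in repeat group 2. Of the 215 members, 62.8% were higher in CIE mice, against 49.9% of genes with a mean of at least 7. Without CIE 8h mouse 15 the shares were 53.0% and 46.2%, in repeat group 1 they were 45.6% and 44.0%, and in repeat group 2 they were 67.0% and 55.9%. In single mice, the median deviation of the members from the Ctrl mean was 0.21 in mouse 15 and 0.12 in mouse 23, the CIE mice of repeat group 2. Over all times, the 5 arrays with the highest medians, 0.12 to 0.21, were the 5 of lowest array weight, 0.104 to 0.428, and the next highest median was 0.08.

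**Figure D4:**
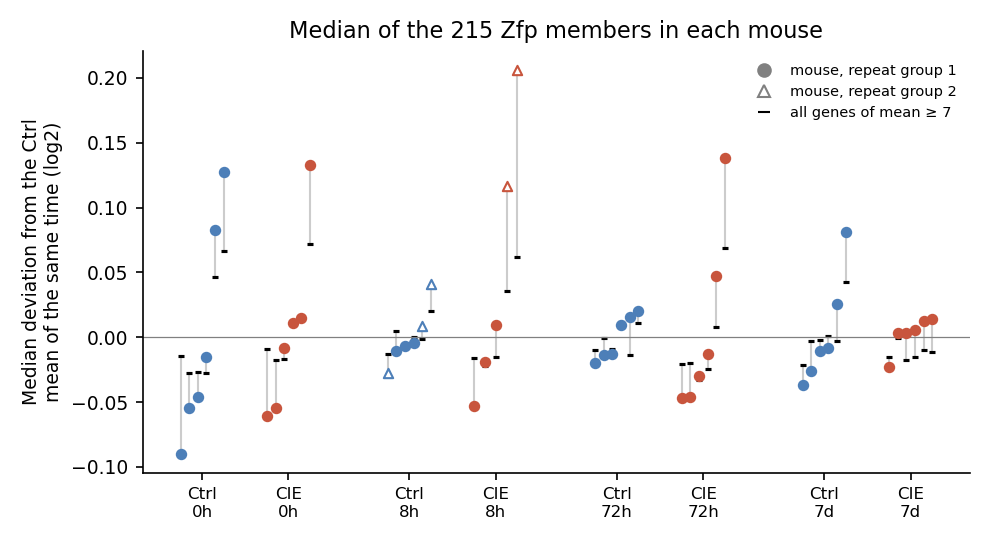
Median over the 215 Zfp members of the deviation from the Ctrl mean of the same time (log2), for each mouse by group; circles are repeat group 1, open triangles repeat group 2, and black dashes the same median over all genes with a mean of at least 7. CIE 8h mice 15 (0.21) and 23 (0.12) lie above the other CIE 8h mice.

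The ethanol effect differed between times in 7 members by the F test of limma (3.26%, against 3.77% of all probesets and 2.49% of genes with a mean of at least 7), namely Zfp775 (adjusted p = 3.43e-05), Zfp513, Zfp407, Zfp664, Zfp82, Zfp560 and Zfp949. Without CIE 8h mouse 15 the number was again 7, of which 5 were shared, and Zfp82 and Zfp949 were lost. Between 8h and 0h, 4 members had effects that differed (3.41% of all probesets and 2.48% of genes with a mean of at least 7 did). The effect of Zfp775 was lower by 0.99 at 8h than at 0h (limma, adjusted p = 6.38e-06), and with the calls above it was the one member called in opposite directions at the 2 times. With repeat group as a term, Zfp664 (-0.22 at 8h, limma, adjusted p = 0.00925) and Zfp513 (0.25, 0.00895) were called at 8h too, opposite to their calls at 0h. In Zfp513 the effect was higher by 0.53 at 8h (adjusted p = 0.000258 in limma) and in Zfp407 by 0.42 (0.000830), from a fall at 0h to differences of 0.24 and 0.11 at 8h, the first not called without that term and the second not called with or without it. In repeat group 1 alone these 8h differences were 0.08 and -0.03, and the changes from 0h no longer passed in Zfp513 (limma, adjusted p = 0.0107) and Zfp407 (0.0301), while those of Zfp775 (7.24e-05) and Zfp664 (0.00438) did.

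Zfp664 moved the other way. Its Ctrl 8h mice ran from 10.45 over 10.54 to 10.59, and its CIE 8h mice held 10.30, 10.30, 10.42, 10.26 and 10.29, below all of them. That difference of -0.21 was not called without the repeat group term (limma, adjusted p = 0.0183), but the effect at 8h was lower than the rise at 0h by 0.42 (limma, adjusted p = 0.000912). All 4 of these differences between 8h and 0h passed without mouse 15, with adjusted p from 2.08e-05 to 0.00202.

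**Figure D5:**
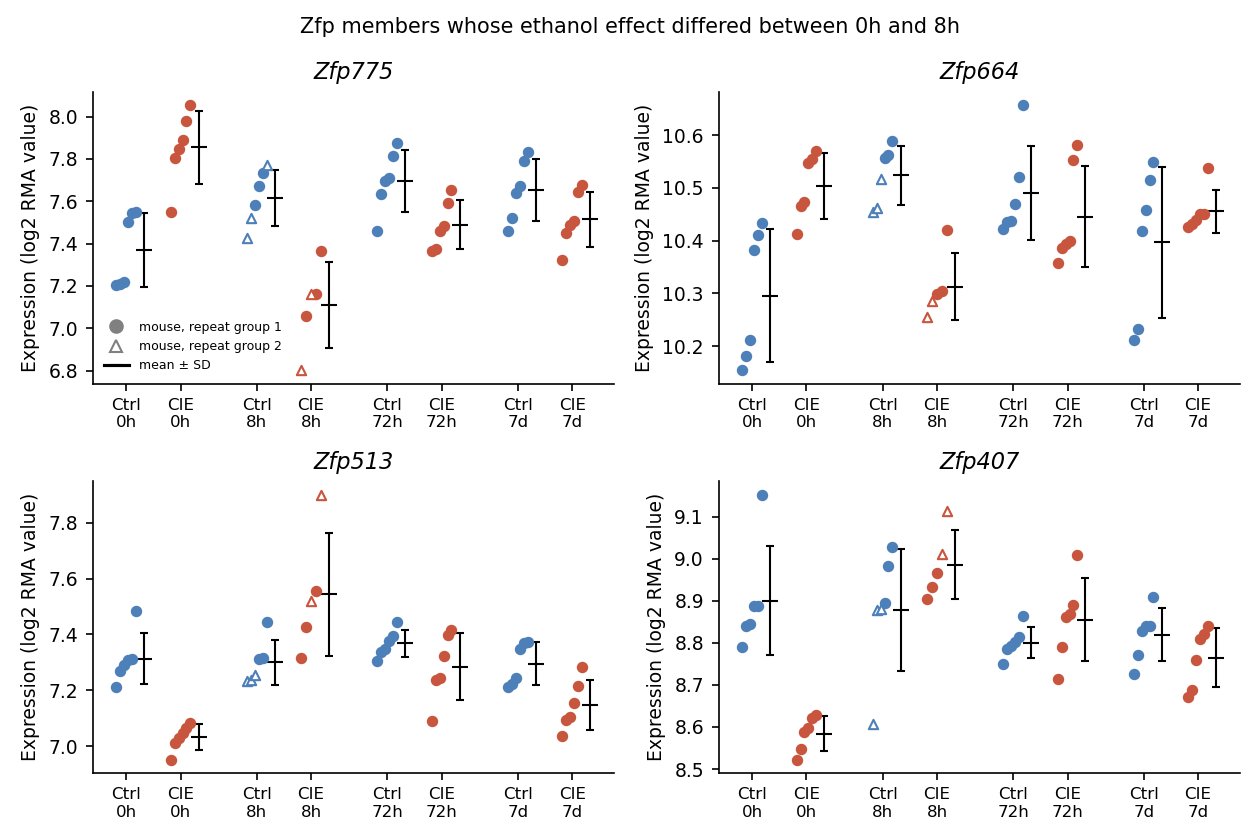
Expression (log2 RMA value) of Zfp775, Zfp664, Zfp513 and Zfp407, the members whose ethanol effect differed between 0h and 8h, in each mouse by group; filled circles are repeat group 1, open triangles repeat group 2, and bars the mean ± SD. In Zfp775 the CIE mice lie above the Ctrl mice at 0h (difference 0.48) and below them at 8h (-0.51).

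Against 7d, the effect at 8h differed in 3 members (1.8% of all probesets and 1.15% of genes with a mean of at least 7 did). It was lower in Zfp82 by 0.47 (limma, adjusted p = 0.00683) and in Zfp949 by 0.37 (0.00340), and higher in Zfp513 by 0.39 (0.00766, or 0.0174 without mouse 15). In repeat group 1 alone, Zfp82 passed (limma, adjusted p = 0.00921), while Zfp949 (0.0366) and Zfp513 (0.136) did not. Among 23 fits that each left out 1 array, the call held in 11 for Zfp82, 8 for Zfp513 and all 23 for Zfp949. The effect at 7d differed from that at 0h in 1 member, Zfp775 (0.273% of all probesets and 0.244% of genes with a mean of at least 7 did). In Zfp775 it was lower by 0.62 (limma, adjusted p = 0.00754), and this call held in 9 of 24 fits that each left out 1 array. These comparisons share their 0h, 8h or 7d mice with each other.

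In the air-exposed mice, the F test of limma over the 4 Ctrl groups called 0 members, against 1.72% of all probesets and 0.362% of genes with a mean of at least 7. At an unadjusted p of at most 0.05 there were 30 members, a threshold at which the share of all probesets is not given here. Between Ctrl 72h and Ctrl 0h alone, 1 member was called (0.465%). The share was 2.19% over all probesets and 0.42% over genes with a mean of at least 7. The called member was Zfp286, which ran from 6.95 over 7.31 to 7.53 at 0h and from 6.70 over 6.87 to 7.11 at 72h. It fell by 0.39 between these groups (limma, adjusted p = 0.00944), which overlapped.

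The members were also read by role, each gene on its brightest probeset unless said otherwise. Among the CCCH proteins that bind AU-rich RNA, Zfp36, Zfp36l1 and Zfp36l2 were measured and 0 passed on the brightest probeset at any time (2, 2, 1 and 1 at an unadjusted p of at most 0.05). With the striatal term, Zfp36l2 was called at 0h on its brightest probeset. On a dimmer probeset, Zfp36l2 fell by 0.43 at 0h (limma, adjusted p = 0.009996) and differed by 0.36 at 8h, not called (0.0538). On another dimmer probeset it differed by 0.02 at 0h, not called (0.915), and rose by 0.44 at 8h (0.00289). No single probeset of Zfp36l2 was called at both times. At 8h Zfp36 differed by 0.38, not called, with 0.23 without mouse 15, and by -0.03 within repeat group 1 and 0.99 within repeat group 2. In the list of imprint and retroelement control (5 genes, 3 of them members), Zfp57, which maintains imprints, rose at 8h, from 4.43 over 4.55 to 4.81 in Ctrl mice to 5.28, 4.97, 5.04, 5.18 and 5.14 in CIE mice. Its difference was 0.52 (limma, adjusted p = 0.00289; 0.0104 without mouse 15), at a mean of 4.80 over all arrays. Of Zfp532, Zfp592 and Zfp687, partners in one chromatin complex, 0 passed on the brightest probeset at any time in limma, and 0 had an unadjusted p of at most 0.05. A dimmer probeset of Zfp592 fell by 0.39 at 8h (limma, adjusted p = 0.00185) and by 0.35 at 72h (0.00937). Of 13 measured genes known for neural roles, Zfp24 at 8h was the one member called, and of 12 that handle RNA or protein, Zfp346 at 0h. Of 11 genes that act on chromatin or GC boxes, 9 of them members, Zfp217 and Zfp516 (neither a member) were called at 0h and the member Zfp518a at 8h. Over all probesets, 7.28% were called at 0h and 3.39% at 8h, and 5.67% and 3.45% of genes with a mean of at least 7. These short lists were not tested as sets.

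The genes through which KRAB zinc finger proteins act were read beside the members. Of 20 measured partners, 4 were called at 0h, with 1 higher and 3 lower, where 7.28% of all probesets and 5.67% of genes with a mean of at least 7 were called. Hdac1, a deacetylase, ran from 7.50 over 7.63 to 7.79 in Ctrl and from 7.85 over 7.93 to 8.01 in CIE mice and rose by 0.30, while its relative Hdac2 fell by 0.24, from 11.51 over 11.61 to 11.89 down to 11.36 over 11.39 to 11.47. Mphosph8, of the HUSH silencing complex, fell by 0.23, and the repressor Morc3 by 0.39, from 8.87 over 8.94 to 9.18 down to 8.51 over 8.61 to 8.64. None of these 4 had overlapping groups, and adjusted p in limma were 0.00561, 0.00254, 0.000370 and 0.000316. The groups did not overlap at 0h in 7.01% of all probesets and 4.03% of genes with a mean of at least 7. With the striatal term, Hdac1 lost its call and the other 3 kept theirs. Among 12 fits that each left out 1 array, the call held in 6 for Hdac1, 11 for Hdac2 and all 12 for Mphosph8 and Morc3. Trim28 itself differed by 0.08 at 0h and by -0.08 at 8h, neither called (adjusted p of 0.315 and 0.348 in limma), and Setdb1 by -0.15 and 0.04.

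At 8h, the heterochromatin proteins Cbx1 and Cbx3 were the 2 of 20 partners called (background 3.39% of all probesets and 3.45% of genes with a mean of at least 7), both higher. Cbx1 held 9.37, 9.37, 9.49, 10.39 and 9.76 in CIE mice against 9.08 over 9.23 to 9.31 in Ctrl mice and rose by 0.46 (limma, adjusted p = 0.00359), or by 0.18 and 0.87 within repeat groups 1 and 2. The highest Cbx1 value was that of mouse 15, without which the difference was 0.28 and not called (0.0228). Cbx3 held 7.21, 7.31, 7.38, 7.01 and 7.19 against 6.65 over 6.76 to 6.89 and rose by 0.45 (limma, adjusted p = 0.00843; 0.00979 without mouse 15). Among 11 fits that each left out 1 array, the call held in 2 for Cbx3 and 9 for Cbx1. In repeat group 1 alone, neither Cbx3 (limma, adjusted p = 0.0172) nor Cbx1 (0.244) passed. At 72h and 7d, limma called 0 partners.

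Some Zfp genes below the level threshold were called too. Of the 121, 12 were called at 0h (9.92%, against 7.28% of all probesets), 1 at 72h and 1 at 7d. At 8h, leaving out Zfp189, which was picked for its difference there, 4 of 120 were called (3.33%, against 3.39%), and also 4 without CIE 8h mouse 15. These were not all the same genes, because Zfp57 no longer passed without that mouse. Zfp53, just below the threshold, ran from 6.45 over 6.62 to 6.82 in Ctrl 0h and from 6.95 over 7.18 to 7.47 in CIE 0h mice and rose by 0.58 (limma, adjusted p = 6.73e-05). At 8h it held 7.15, 7.32, 7.25, 7.63 and 7.55 in CIE against 6.66 to 6.97 in Ctrl mice and rose by 0.60 (limma, adjusted p = 0.000424; 0.00266 without mouse 15). Its groups overlapped at neither time. Zfp619 at 8h held 6.52, 6.51, 6.50, 6.62 and 6.84 against 5.82 over 6.02 to 6.08 and rose by 0.62 (limma, adjusted p = 0.00177), again without overlap and with 0.00624 without mouse 15.

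Other genes below the threshold rose at 0h or late. Zfp217, which joins corepressor complexes, rose at 0h by 0.61, from 5.27 over 5.57 to 5.74 up to 5.96 over 6.12 to 6.39 (limma, adjusted p = 0.000924). Zfp516, which activates thermogenic genes in fat, rose at 0h by 0.55 (limma, adjusted p = 0.000225), without overlap of the groups. On the brightest probesets Zfp750 was the one Zfp gene called late, and rose by 0.51 at 72h (5.00 over 5.46 to 5.75 against 4.78 over 4.85 to 5.04 in Ctrl) and by 0.55 at 7d (5.11 over 5.51 to 5.79 against 4.70 over 4.86 to 5.12), with overlapping groups. Adjusted p in limma were 0.00311 and 0.00095. With each time fitted alone they were 0.0711 and 0.0245, and neither call of Zfp750 held.

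Probesets of one gene did not always move together. Of 230 dimmer probesets of the members, 20 were called at 0h (8.7%, against 7.28% of all probesets), 10 at 8h (4.35%, against 3.39%), 1 at 72h (0.435%, against 0.528%) and 2 at 7d (0.87%, against 0.948%). The late ones were that of Zfp592 at 72h, and at 7d those of Zfp148, which fell by 0.38 (limma, adjusted p = 0.00288), and Zfp385b, which fell by 0.48 (0.00455). The dimmer probeset of Zfp407 (mean 4.06) rose by 0.29 at 0h (limma, adjusted p = 0.00874), where the brightest fell by 0.32. The 5 dimmer probesets of Zfp24 differed by -0.24 to 0.15 at 8h, where the brightest rose by 0.35. The dimmer probeset of Zfp37 differed by 0.27 at 0h (0.0261), in the direction of its brightest. Zfp775, Zfp513, Zfp518a, Zfp449 and Zfp189 had 1 probeset each and cannot be checked in this way.

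Zfp genes often stand side by side in the mouse genome, in families of similar sequence. There were 43 pairs of members that followed each other among protein-coding genes, and their deviations from the group means correlated at a median of 0.36 (from -0.64 to 0.80), against 0.18 over all 23005 pairs of members, over the same 47 arrays. The highest value was that of Zfp942 and Zfp943, and whether the probes of such neighbours share sequence was not tested. In 0 of these pairs were both members called, but only 3 of the 17 members called at any time had a Zfp gene next to them. So few called neighbours cannot show whether neighbours respond together.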

How the data were processed

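RNA of the medial PFC of 47 mice was measured on Affymetrix Mouse430_2 arrays. The deposited values are log2 expression that the authors made with RMA and quantile normalization within hybridization batches, quantile normalization over all arrays and a ComBat adjustment for repeat group; no version is given in the sources used here, and this adjustment can alter differences at 8h, where both repeat groups occur. Detection calls and other deposited columns were not used. Probesets were named by the platform annotation, and 27 probesets with several symbols, one of them a Zfp, were not used.

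One model of 8 group means was fitted to all 45037 probesets with limma 3.58.1 (R 4.3.3, files read with the data.table package, version 1.17.8), and called at a Benjamini-Hochberg FDR of at most 0.01, after tests on simulated data. The mice are separate animals. Members, lists, named genes and tests were chosen with earlier results of these data known. Named genes were Zfp189, up to 8 called members a direction and time, the leading genes of role lists, genes nearest the threshold, and those most like Zfp189. Alternatives were repeat group as a term or repeat group 1 alone, each time alone, array weights, a trended robust variance, array centring, other level thresholds and probesets, and leaving out each array. A split by KRAB domain was not analysed here.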

Additional observations from a re-analysis of the deposited data

Results flagged for a closer look

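Among 152 groups of mice in 19 genes, 12 held a mouse far from the others, where chance gives about 1 in 20. These were Zfp24 in Ctrl 72h mouse 44 (9.97, highest) and CIE 72h mouse 33 (9.69, lowest), Zfp37 in CIE 8h mouse 15 (9.86, highest), Zfp407 in Ctrl 0h mouse 2 (9.15, highest) and Ctrl 8h mouse 32 (8.61, lowest), and Zfp449 in CIE 0h mouse 17 (7.95, highest). The others were Zfp511 in Ctrl 0h mouse 20 (8.67, highest), Zfp513 in Ctrl 0h mouse 2 (7.48, highest), Zfp560 in Ctrl 8h mouse 75 (9.13, highest), Zfp664 in CIE 7d mouse 65 (10.54, highest), Zfp82 in Ctrl 72h mouse 44 (7.05, lowest) and Zfp949 in Ctrl 0h mouse 78 (7.77, highest).

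The ethanol effect of some members differed between 2 times in a test of the difference itself (limma). From 0h to 8h the effect changed by -0.99 in Zfp775, -0.42 in Zfp664, 0.53 in Zfp513 and 0.42 in Zfp407, and from 0h to 7d by -0.62 in Zfp775. The effect at 8h minus that at 7d was 0.39 in Zfp513, -0.47 in Zfp82 and -0.37 in Zfp949.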

How the results depend on the processing

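The count of members called was the least stable result. The share of all probesets called under the other fits or without an array was not computed. Whether a change in these counts is particular to the members was therefore not tested. With array weights it was 21 at 0h, 24 at 8h, 1 at 72h, 3 at 7d, 24 for effects that differed over time and 21 for the Ctrl times. With each time fitted alone it was 5 at 0h, 0 at 8h and 1 at 7d, and F tests could not be run. With repeat group as a term it was 16 at 8h and 4 for the Ctrl times, and with repeat group 1 alone 3 at 8h, 1 at 72h, 1 at 7d, 4 for effects over time and 3 for the Ctrl times. A member threshold of 8 left 2 at 8h and 3 for effects over time, and one of 6 gave 10 at 8h and 2 for the Ctrl times. Testing only probesets of mean 7 or more gave 4 effects over time, and the most variable probeset 11, with 3 for the Ctrl times. Partners called at 8h were 0 with repeat group 1 or each time alone, and 1 with the level filter or array centring.

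Leaving out each array gave 7 to 14 calls at 0h, 3 to 10 at 8h, 0 to 0 at 72h and 7d, 4 to 8 effects over time and 0 to 2 Ctrl times, and 3 to 4, 0 to 2, 0 to 0 and 0 to 0 partners at the 4 times. The count was 7 at 0h without CIE 0h mouse 5, 3 at 8h without CIE mouse 15 or Ctrl mouse 66, 75 or 79, and 10 without CIE mouse 51. Effects over time numbered 4 without Ctrl 8h mouse 66, 75, 79 or 50, Ctrl 7d mouse 28 or 80, CIE 0h mouse 5 or CIE 7d mouse 45. The Ctrl times gave 1 without Ctrl 8h mouse 42 and 2 without Ctrl 8h mouse 50, and partners at 8h 0 without CIE mouse 23. The Zfp189 difference ran from 0.24 to 0.54 at 0h, 1.01 to 1.29 at 8h, 0.20 to 0.45 at 72h and -0.09 to 0.10 at 7d, where it was -0.06 without Ctrl mouse 28, -0.07 without 70, -0.02 without 80, and -0.086 without CIE mouse 13 and -0.089 without CIE mouse 7.

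Of 32 results for single genes, 4 kept their call under every setting and without each array. With the most variable probeset the sign turned at 0h in Zfp46 (-0.12), Zfp655 (0.036), Zfp60 (0.26), Zfp664 (-0.045), Zfp560 (-0.25), Zfp160 (-0.033) and Zfp407 (0.29), at 8h in Zfp24 (-0.24), and in the 8h difference of effects of Zfp407 from 0h (-0.38) and of Zfp949 from 7d (0.091); the cause was not tested. Zfp189 had no other probeset. No paired analysis was possible because no mouse number occurs in more than 1 group. The striatal term, the 8h shares, medians and overlaps without mouse 15, and the count without Zfp189 were chosen after seeing the data.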
